A study of Caenorhabditis elegans with 5 samples.

Results

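The regions described here are rows of close binding peaks of ALR-1, an aristaless-type homeodomain protein of the nematode Caenorhabditis elegans. A run was defined as neighbouring peaks of the authors' combined list separated by gaps of at most 1000 bp, and runs of 3 or more peaks were taken. This rule gave 131 runs that held 437 of the 6159 combined peaks, or 7.10%. The other 5722 peaks stood alone (4650 peaks) or in runs of 2 (1072 peaks). The members were chosen by the positions of the combined peaks, so their closeness is a description and not a finding.

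All libraries came from hermaphrodites of strain OP200 at the L2 larval stage, grown at 20 °C and fixed with 2% formaldehyde. The strain carries the mutation unc119(ed3) and the transgene wgIs200, made by bombardment, which holds tagged alr-1 (alr-1::TY1 EGFP FLAG C) and a copy of unc119. The ChIP group (3 libraries, of which 2 carry the replicate number 1 and 1 the number 2) came from precipitation by goat anti-GFP antibody. The input group (2 libraries, both with the number 1) is input DNA, and which input went with which list is not given. Every library came from this tagged strain and from whole animals, so each peak is a mixture over tissues, and no untagged strain was used here. The data were 3 lists of peaks, for replicate 1 (1628 peaks), replicate 2 (3994 peaks) and the combination. The one value deposited per peak is the q-value of the authors' peak caller. Strength below means −log10 of that q-value, so that 2 is the limit of the lists and larger is stronger. Read totals were not used here and the depth behind a peak is unknown.

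Homeodomain proteins bind short AT-rich DNA motifs, and a regulatory region often holds several binding sites for the same factor. ALR-1 is known for work in the development of touch receptor, chemosensory and motor neurons. In ChIP-seq, DNA fragments longer than the bound site give each peak its width, and peak callers join or split neighbouring summits by their own rules. Separate sites and 1 broad enriched stretch called in pieces cannot be told apart from peak lists. No pair of neighbouring peaks in any of the lists was closer than 200 bp.

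Most runs were short rows. There were 99 runs of 3 peaks, 22 of 4, 9 of 5 and 1 of 7. The median run spanned 2864 bp from its first base to its last (interquartile range 2352.5 to 3676 bp, lowest 1452 bp, highest 14890 bp). Called peaks covered a median of 55.3% of the span (lowest 21.7%, highest 91.8%). The 306 gaps inside runs had a median of 542 bp, with 51 of them under 300 bp, and the midpoints of neighbouring members lay a median of 1080.5 bp apart. The members covered 272 kb, which is 9.29% of the bases under combined peaks.

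The strongest run lay on X from 11123547 to 11138436 (WS190, as are all positions here, counted from 1). Its 4 combined peaks had strengths, in order along the chromosome, of 20.7, 64.5, 123.0 and 219.0, so the strength grew towards the right end. Replicate 1 had 8 peaks in this stretch, from 4.07 to 36.1, and replicate 2 had 6, from 9.70 to 85.2. In replicate 2 the strongest peak was the last one, at 11136150 to 11138445. In replicate 1 it was the next one to the left, at 11134611 to 11136009 with 36.1, and the last peak had 35.5. The long combined peak of 4647 bp at 11129688 to 11134334 stood over 3 peaks in replicate 1 and 2 in replicate 2. The members of this run thus divide the stretch more coarsely than the replicate lists do. The transgene carries alr-1 sequence, and whether this region holds that gene was not determined, because no annotation of build WS190 was used.

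The run with the most peaks lay on chromosome I from 12544599 to 12552467, with 7 members over 7869 bp. Their strengths were 2.89, 5.29, 7.58, 13.8, 7.22, 8.19 and 2.38 from left to right, highest in the middle and lowest at both ends. Replicate 2 had a peak at each of the 5 inner members, with strengths from 2.23 to 5.45, and none at the 2 outer ones. Replicate 1 had no peak in the run.

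The 9 runs of 5 peaks differed in how evenly the strength was spread. On II at 5947630 to 5952555 all 5 members had a replicate 2 peak (3.97 to 7.43), and 2 had a replicate 1 peak (4.48 and 2.81). The combined strengths there ran from 3.92 to 11.3. On V at 10174449 to 10178593 the first member had 24.0, with 7.36 in replicate 1 and 15.1 in replicate 2. The other 4 members of that run had 2.15 to 3.52 and no peak in either replicate list. The first of these 2 runs held moderate peaks that each had a replicate 2 peak, and the other 1 strong peak with weak neighbours.

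The most even run of 5 was on V at 9075837 to 9083104, with combined strengths of 3.56 to 4.86. On V at 12548720 to 12556395 the middle member had 32.6, with 15.3 in replicate 1 and 10.8 for the stronger of 2 replicate 2 peaks. On I at 7363496 to 7367436 the strengths were 20.9, 3.49, 8.54, 2.55 and 4.49, and the 3 stronger ones each had a replicate 2 peak. On III at 9268968 to 9272424 the highest values were 10.3 and 9.67, at the last and the second member. The lists disagreed there on which was stronger: replicate 2 had 8.10 at the second and 4.87 at the last, and replicate 1 had 3.51 at the last and no peak at the second. On II at 5042444 to 5047074 the last member, with 8.23, was the one that both replicate lists shared. On I at 10231704 to 10236157 replicate 2 had 3 peaks and replicate 1 had none. No run on IV or X had more than 4 peaks. The first on IV, at 3819438 to 3822397, had 3.62, 5.71, 12.7 and 2.95, with the highest member at 3.40 in replicate 1 and 10.5 in replicate 2.

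Replicate 1 had the higher strongest peak in 2 runs of 5, the one on V at 12548720 and one on I. On I at 5372273 to 5383097 the first 3 members had combined strengths of 35.1, 34.5 and 15.7. Replicate 1 had 28.0, 20.6 and 6.82 at them, and replicate 2 had a single peak of 680 bp with 6.12, under the second member. Over the 74 runs with peaks of both lists, the strongest replicate 2 peak was the higher one in 62, so these runs stood on the less common side. Strengths of different lists do not measure a difference in binding.

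**Figure D1:**
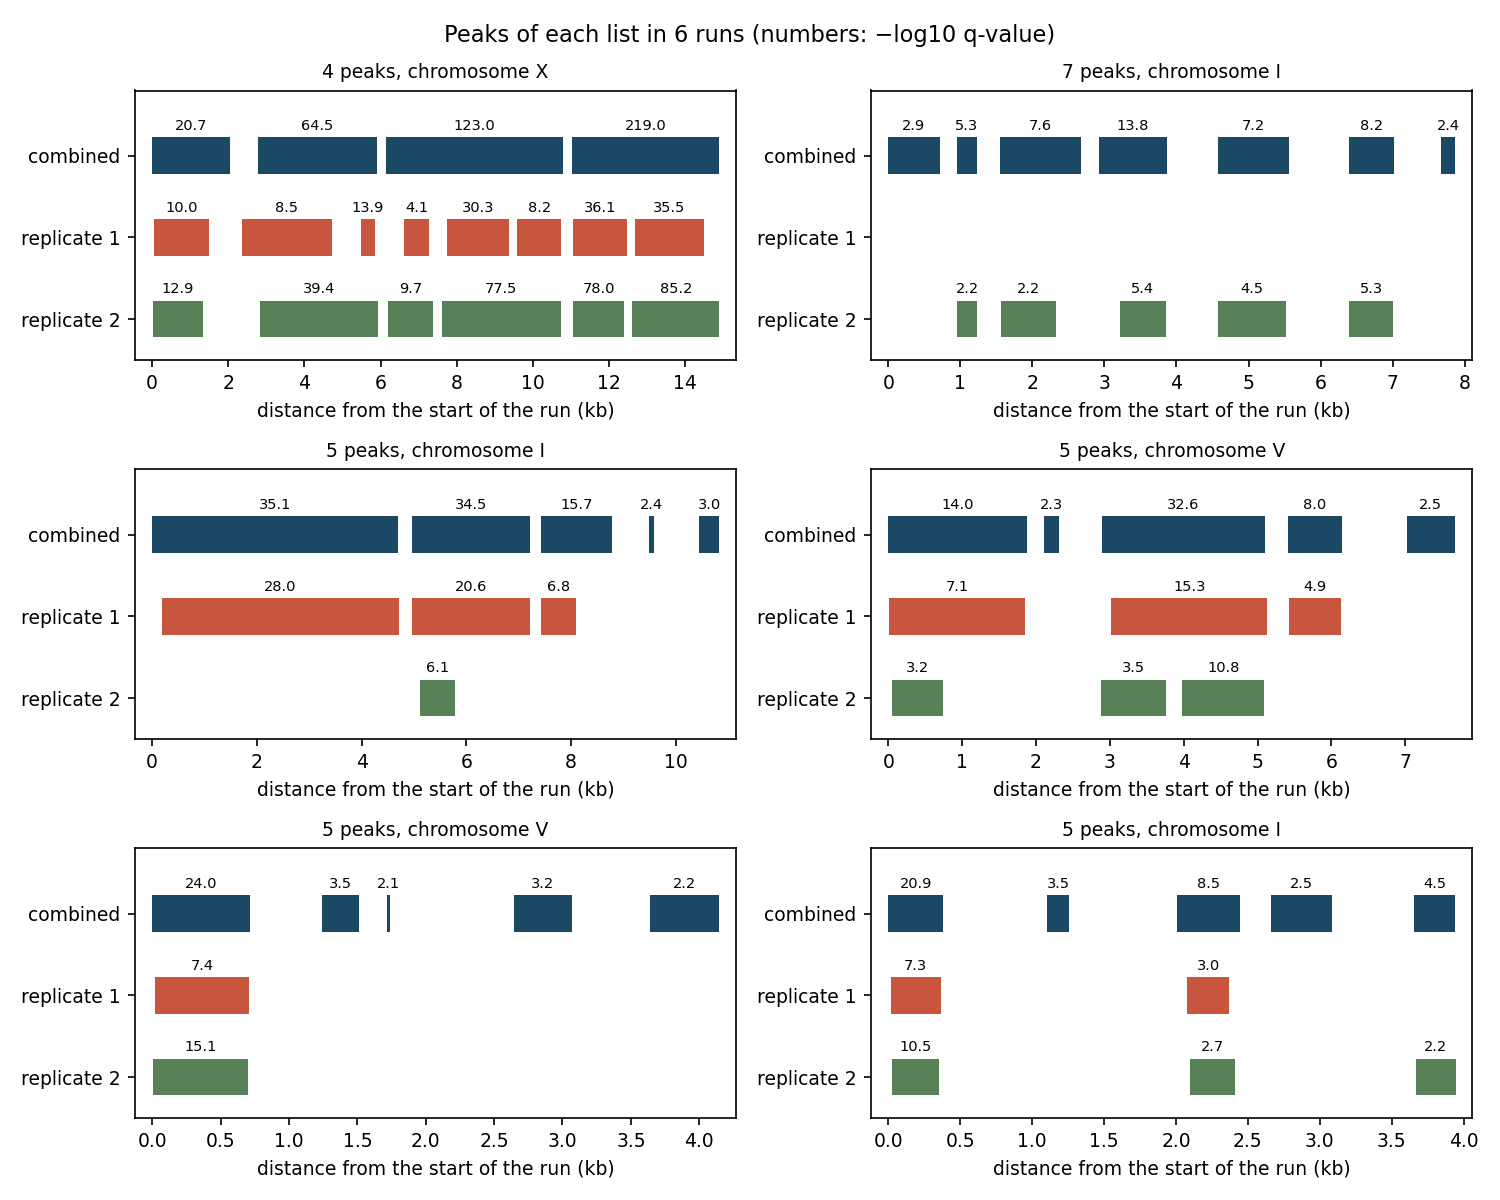
Peaks of the combined, replicate 1 and replicate 2 lists (bars, to scale) in 6 runs, against the distance in kb from the start of the run; the number over each bar is its strength (−log10 of the authors' q-value). The run on X with 219.0 at its right end was called in more pieces in both replicate lists, the run of 7 on I has no replicate 1 peak, and in the run on V that opens with 24.0 only the first of 5 peaks is in the replicate lists.

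Within a run the strengths were unequal. The strongest member had a median strength of 8.95 over the 131 runs, the second 4.57 and the weakest 2.48, close to the limit of the list. In 107 runs (81.7%, Wilson 95% interval 74.2 to 87.4%) the strongest member had a q-value at least 10-fold smaller than the second. Set against the median of all combined peaks, 39 runs had 1 member at or above it, 49 had 2, 27 had 3 or more and 16 had none. Every member reached the median in 15 runs. Since the highest of 3 or more values is taken, an order like this is built in; the values are given to show its size. The strongest member stood first in 30, in the middle in 36 and last in 33 of the 99 runs of 3. It was also the widest member in 67 of the 131 runs.

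A few runs were strong throughout, and another held 2 strong peaks of like strength beside a weak one. On III at 7720795 to 7726584 the 3 members had 10.6 to 18.6, and on X at 11123547 all 4 members exceeded 20. On V at 10273545 to 10276966 the first and second members were almost level, with 24.2 and 24.9. They were also almost level in both replicate lists, with 6.56 and 6.58 in replicate 1 and 15.4 and 17.3 in replicate 2. The last member of that run had 2.11 and no replicate peak. The run on III was picked after its values were seen.

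In other runs the strongest members stood beside a much weaker one. On I at 7656645 to 7662512 the strengths were 80.4, 2.25 and 16.1, and the first peak measured 3856 bp. On I at 10031615 to 10038107 they were 36.2, 2.59 and 28.2, so that 2 strong peaks enclosed a weak one. On X at 12688357 to 12690753 they were 5.28, 2.31 and 38.4. On IV at 10339729 to 10343007 they were 3.01, 3.25 and 28.1, with a replicate 2 peak of 25.3 and a replicate 1 peak of 3.02 at the last member. On I at 8119117 to 8122348 the middle of 3 peaks had 26.2, between 12.0 and 4.02, and on V at 8767127 to 8768787 the first of 3 had 24.7. In all, 21 of the 100 strongest combined peaks were members, and they lay in 16 runs. Members made up 7.10% of all combined peaks. The peaks of ranks 1, 2 and 4 all lay in the strongest run on X, so these 21 are not independent. As a group, though, members were close to the rest in strength: their median was 4.09 (95% interval from order statistics 3.83 to 4.52), against 4.05 (3.95 to 4.15) for the 5722 other peaks. The size and sign of this small difference depended on how peaks were joined. With gaps of up to 2000 bp members were higher, with 4.52 (4.25 to 4.90) against 3.96. The sign turned with gaps of up to 500 bp (3.93 against 4.06) and with peaks joined by their midpoints (3.84 against 4.08). By chromosome, the median of members was higher on I and III and lower on the other 4.

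**Figure D2:**
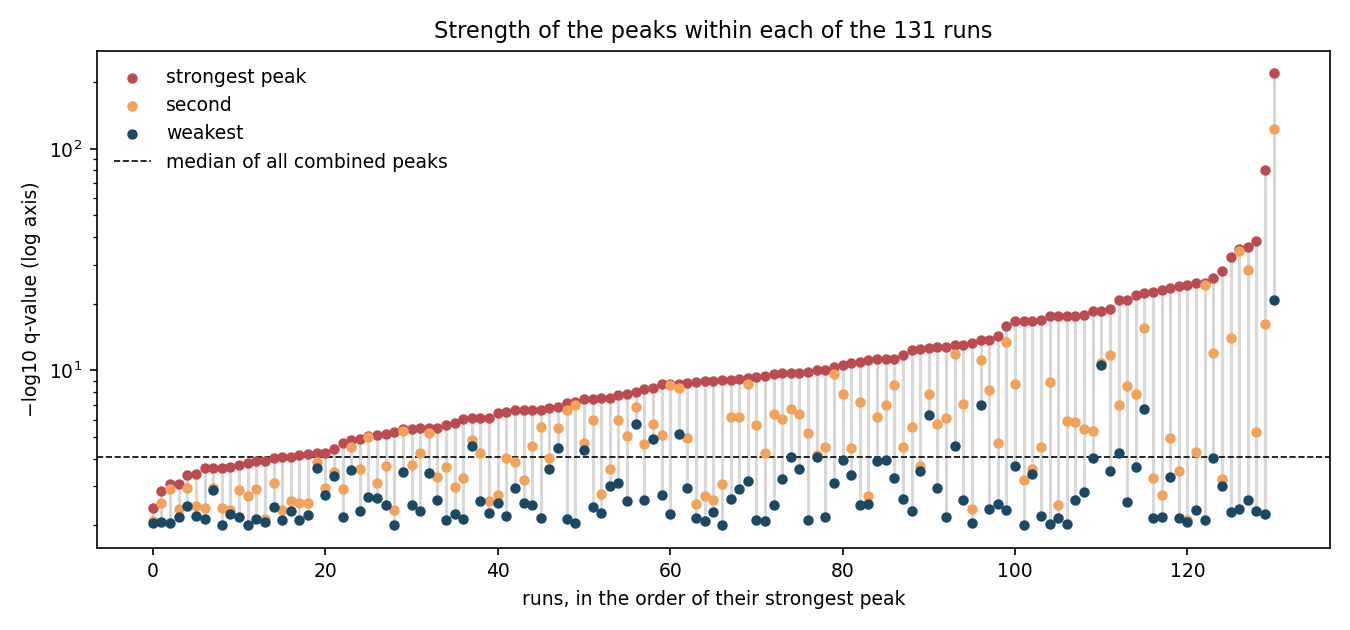
Strength (−log10 of the authors' q-value, log axis) of the strongest, second and weakest member of each of the 131 runs, in the order of the strongest; the dashed line is the median of all combined peaks. Most weakest members lie between 2 and 3.32, whatever the strongest reaches, and the run on X stands at the far right with 219.0.

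The members were then compared with the replicate lists. Of the 437 members, 115 overlapped a replicate 1 peak by at least 1 bp (26.3%, Wilson 95% interval 22.4 to 30.6%), and 1466 of the 5722 other peaks did (25.6%, 24.5 to 26.8%). A replicate 2 peak overlapped 260 members (59.5%, 54.8 to 64.0%) and 3504 others (61.2%, 59.97 to 62.5%). Both lists overlapped 93 members (21.3%, 17.7 to 25.4%) and 1139 others (19.9%, 18.9 to 20.96%). Neither list overlapped 155 members (35.5%, 31.1 to 40.1%) and 1891 others (33.0%, 31.8 to 34.3%). All 4 pairs of intervals overlapped. Members were wider, however, and at like width a higher share of them was in neither list. In 4 classes of width with like numbers of combined peaks, from narrow to wide, 70.9%, 38.1%, 30.4% and 19.4% of members were in neither list, against 62.7%, 28.6%, 23.2% and 17.0% of other peaks, with overlapping intervals in each class. In the class next to the narrowest, a replicate 1 peak overlapped 13.1% of members (7.47 to 21.9%) and 25.1% of other peaks (22.98 to 27.4%). Under other ways of joining the share of other peaks also lay outside the members' interval. With gaps of up to 2000 bp, 30.3% of members (27.7 to 33.0%) and 24.6% of other peaks overlapped replicate 1, and with midpoints joined 19.2% (15.2 to 23.97%) and 26.0% did, so the direction depended on how peaks were joined. These intervals cover counting error only and treat peaks as independent, which neighbours in a run are not. The combined list may hold the reads of both replicates, so no test was made and the overlap is no independent check.

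Overlap with the replicate lists fell along the order of strength within the run. That order is of combined strength, and the combined list may hold the reads of both replicates. The fall is therefore a description and no independent check of recurrence. Of the 131 strongest members, 50.4% were in both lists and 7.63% in neither. Of the 131 second members, 16.8% were in both and 33.6% in neither. Of the 175 members below the second, 2.86% were in both and 57.7% in neither. The stronger peaks of the 536 pairs had 38.8% in both and 14.0% in neither, the weaker ones 8.21% and 47.8%, and single peaks 19.1% and 33.5%. The combined list was also split by strength into 4 classes of like size. The weakest class held 118 members and 1422 others, and the next 97 and 1442. From the weakest class to the strongest, 78.0%, 51.5%, 12.4% and 0.80% of members were in neither list. For others these shares were 78.3%, 45.1%, 8.66% and 0.14%, with overlapping intervals in each class. In the strongest class 67.2% of 125 members and 65.9% of 1415 others were in both lists. In the class next to the strongest, 9.28% of 97 members and 13.9% of 1443 others were in both.

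**Figure D3:**
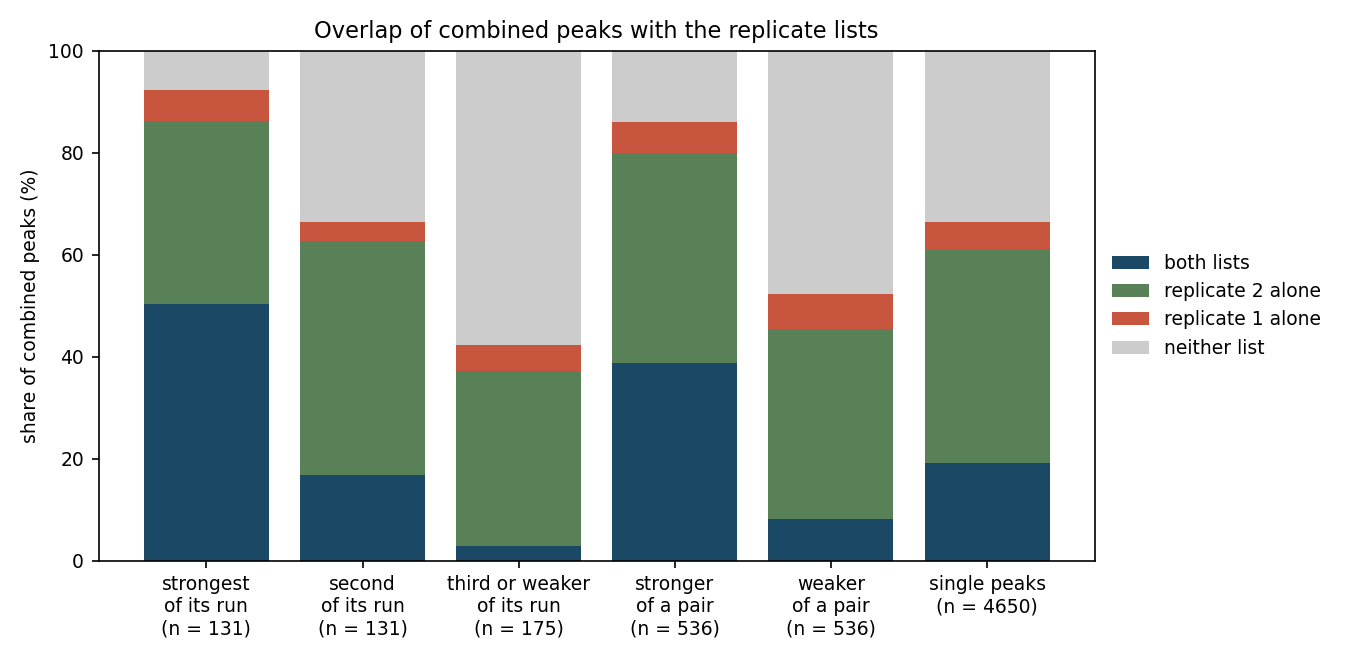
Share of combined peaks (%) that overlapped both replicate lists, 1 of them or neither, by the order of combined strength within the run; n is the number of peaks. The share in both lists is 50.4% for the strongest members and 2.86% for members below the second, and the bar of single peaks, with 19.1% in both, lies between them.

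Most runs did not have every member in a replicate list. Taken singly, 59.5% of members were in replicate 2, 26.3% in replicate 1, 21.3% in both and 35.5% in neither. For other peaks these shares were 61.2%, 25.6%, 19.9% and 33.0%. Asking for every member lowers a share, and asking for at least 1 raises it. The counts of runs are therefore a description and no finding about runs. At least 1 member was in each replicate list in 74 runs (56.5%, 47.9 to 64.7%). In 44 runs members were in replicate 2 alone, in 5 in replicate 1 alone, and in 8 in neither. Every member was in replicate 2 in 27 runs and in replicate 1 in 6. Every member was in both lists in 2 runs, named here after their values were seen. They were the strongest run on X and a run on IV at 5957140 to 5960390. The 3 members on IV had 12.6, 6.27 and 7.84, with 3.40, 2.74 and 2.01 in replicate 1 and 8.44, 3.35 and 6.09 in replicate 2. Their widths were 378, 376 and 645 bp in the combined list and stayed separate in each replicate.

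Where both lists had peaks in a run, their strongest peaks often lay at the same place. The strongest replicate 1 peak shared at least 1 bp with the strongest replicate 2 peak in 55 of 74 runs (74.3%, 63.3 to 82.9%). In the 21 runs with 2 or more peaks of each list this was so in 14 (66.7%, 45.4 to 82.8%), and in the remaining runs 1 list offered a single choice. Among the exceptions were the runs on I at 5372273, on II at 5947630 and on III at 9268968. On X at 11123547 the 2 strongest replicate peaks did not overlap but lay in the same member, and in all 56 of the 74 runs had both strongest peaks in 1 member. For scale, 76.5% of the replicate 1 peaks outside replicate 1 runs overlapped some replicate 2 peak. That is a different measure, but its value is near the 74.3%. The shared place is therefore a description and no finding about runs.

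The strongest run in neither list lay on I at 4914193 to 4918031, with strengths of 9.78, 4.08 and 6.70. Of the 8 runs in neither list, 5 lay on I, 2 on II and 1 on X. Chromosome I also had more combined peaks outside runs that were in neither list: 44.5% of its members and 44.4% of its other peaks, against 24.0 to 40.3% of members and 28.4 to 31.7% of other peaks on the other 5 chromosomes. Its part in the result was not tested. Among runs seen in 1 list alone, the strongest were X at 6569555 to 6571484 (17.5, with 16.3 in replicate 2), the run of 7 on I, and I at 10231704 (9.68). The weakest runs were II at 9117472 to 9119146, X at 12508998 to 12513651 and II at 9371094 to 9373004. Their strongest members had 2.40, 2.84 and 3.07, and none of their members was in a replicate list.

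Most gaps between members could not be compared with the replicate lists, since many members had no replicate peak. Both members beside a gap had a replicate 1 peak at 28 of the 306 gaps, and 1 replicate 1 peak spanned the gap at 2 of them. For replicate 2 the counts were 111 and 4, at different gaps from those of replicate 1. A replicate 1 peak reached into 26 gaps and a replicate 2 peak into 78. One of the gaps spanned was on V at 8767127, where a replicate 2 peak of 747 bp covered the second and the last member. No replicate peak lay wholly inside a gap. In the other direction, 4 members were split over 2 or more replicate 1 peaks and 7 over 2 or more replicate 2 peaks.

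The same rule applied to each replicate list found fewer runs. Replicate 1 gave 8 runs with 29 peaks (1.78% of its list) and replicate 2 gave 37 runs with 120 peaks (3.00%), against 7.10% in the longer combined list. Of these, 6 of the replicate 1 runs and 30 of the replicate 2 runs overlapped a combined run. The combined runs that met them were 6 (4.58% of 131) and 30 (22.9% of 131). Replicate 1 and replicate 2 shared 1 run, the one on X. The share of peaks in runs grows with the number of peaks on the same genome, so the 3 shares are not a comparison of binding.

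Runs lay in the middle of the chromosomes more often than other peaks did. The central 40% of each chromosome, measured between the outermost peaks of any list, held 313 of 437 members (71.6%, 67.2 to 75.6%) and 2965 of 5722 other peaks (51.8%, 50.5 to 53.1%). Members were higher on all 6 chromosomes. The shares were 94.5% of members against 57.4% of other peaks on V, 87.5% against 55.4% on II, and 81.1% against 54.4% on IV. They were 64.0% against 51.6% on III, 59.1% against 54.4% on I and 58.3% against 40.5% on X. The intervals did not overlap on II, IV, V and X and did on I and III. They treat peaks as independent, while the members of a run lie together, so they are too narrow for members. Counted as runs, 13 of 23 were central on X. Runs of 4 or more peaks had 86.4% of their peaks there, runs of exactly 3 had 64.6%, pairs 58.2% and single peaks 50.3%. Where peaks are dense, close neighbours are more frequent, and the rule selects for closeness. The gradient is therefore a description of where the rows lie, with no test.

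Counted as runs, 92 of 131 were central, among them 14 of the 15 on V. Of the outer members, 56 lay to the left and 68 to the right. Runs were most frequent on I, with 32 or 2.13 per Mb, followed by III (23, 1.68 per Mb), II (21, 1.38), X (23, 1.31), IV (17, 0.98) and V (15, 0.718). Members made up 8.85% of the peaks on I (7.39 to 10.6%), 8.11% on III and 7.95% on II. On X, IV and V they made up 5.91%, 5.76% and 5.81%. The interval on I lay just above that on X (4.72 to 7.38%), and all other pairs of intervals overlapped. These intervals also treat the members of a run as independent. The replicate lists gave the same direction for the centre: 29 of 29 run peaks in replicate 1, against 57.7% of its other peaks, and 73.3% of run peaks in replicate 2, against 52.4%.

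**Figure D4:**
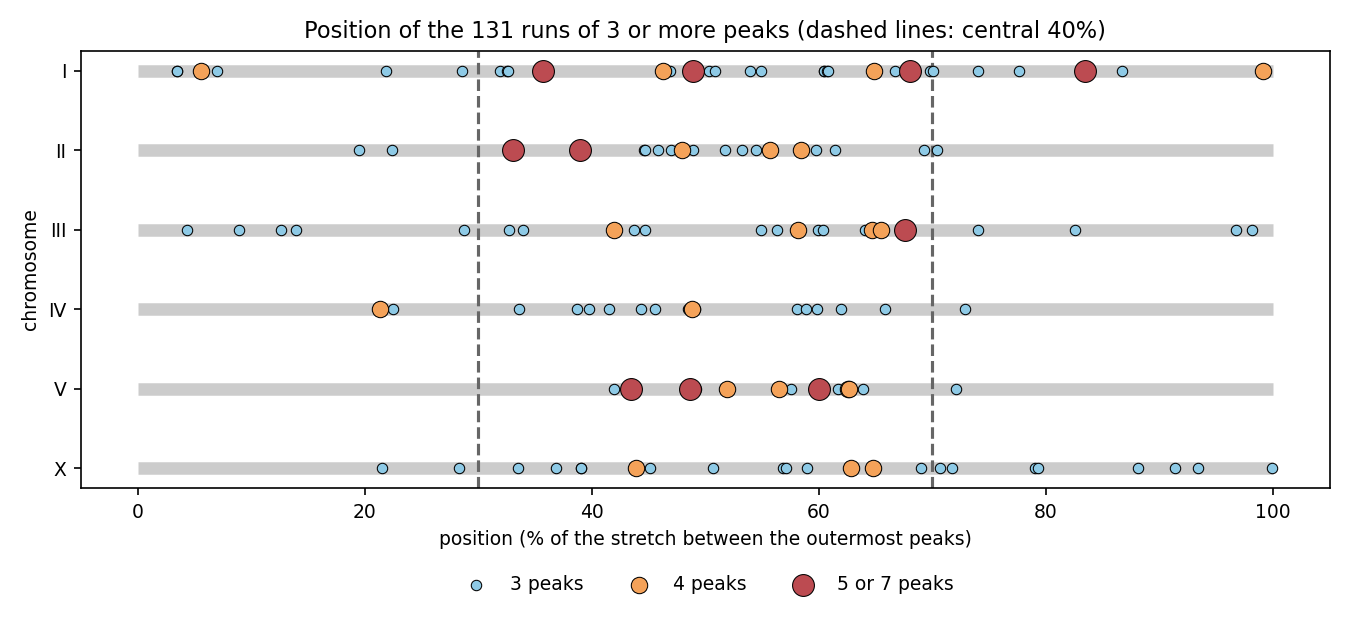
Position of each run along its chromosome, as % of the stretch between the outermost peaks of any list; circles grow with the number of peaks, and the dashed lines bound the central 40%. On V, 14 of 15 runs lie between the lines, while on X 13 of 23 do.

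Some runs were themselves neighbours. In 6 cases the next run began within 10 kb. The densest group lay on II from 5947630 to 5967061, where 3 runs with 13 members and 1 further peak stood within 19.4 kb. Its strongest peak, at 5955678 to 5956516, had 23.1, with 5.82 in replicate 1 and 18.0 in replicate 2. Of the 14 peaks, 5 were in both lists, 11 in replicate 2 and 3 in neither. The third of these runs, at 5962300, holds a gap of 990 bp, so it is also among those closest to the limit of the rule. The closest pair of runs lay on I, at 9092249 to 9094172 and 9095443 to 9098095, 1.27 kb apart.

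Members were wider than other peaks under the rule as given. The median width was 435 bp (95% interval from order statistics 401 to 467 bp, interquartile range 297 to 711 bp) for members and 368 bp (362 to 373 bp, interquartile range 271 to 526 bp) for other peaks. Among the other peaks it was 407 bp (392 to 423 bp) in pairs and 360 bp (354 to 366 bp) for single peaks. The interval of pairs overlapped that of members, so greater width was not particular to runs of 3 or more. Members had the higher median on all 6 chromosomes, and within each of the 4 classes of strength. The intervals of members and others lay apart only on III and V and in the strongest class, and overlapped elsewhere. In the strongest class the medians were 657 bp for members and 481 bp for others, and in the weakest 322 and 287 bp. Among members 17 exceeded 2000 bp (3.89%), and among others 73 (1.28%), with 2.15% of peaks in pairs and 1.08% of single peaks. Of the 17 members, 4 belonged to the strongest run on X. The rule measures gaps from edge to edge, which favours wide peaks. When midpoints no farther apart than 1372 bp were joined instead, a setting added with the data in view, the direction turned: the median was 355.5 bp for members and 372 bp for others. Joining by midpoints in turn leaves out wide peaks at a given gap, so neither measure of closeness is neutral to width.

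**Figure D5:**
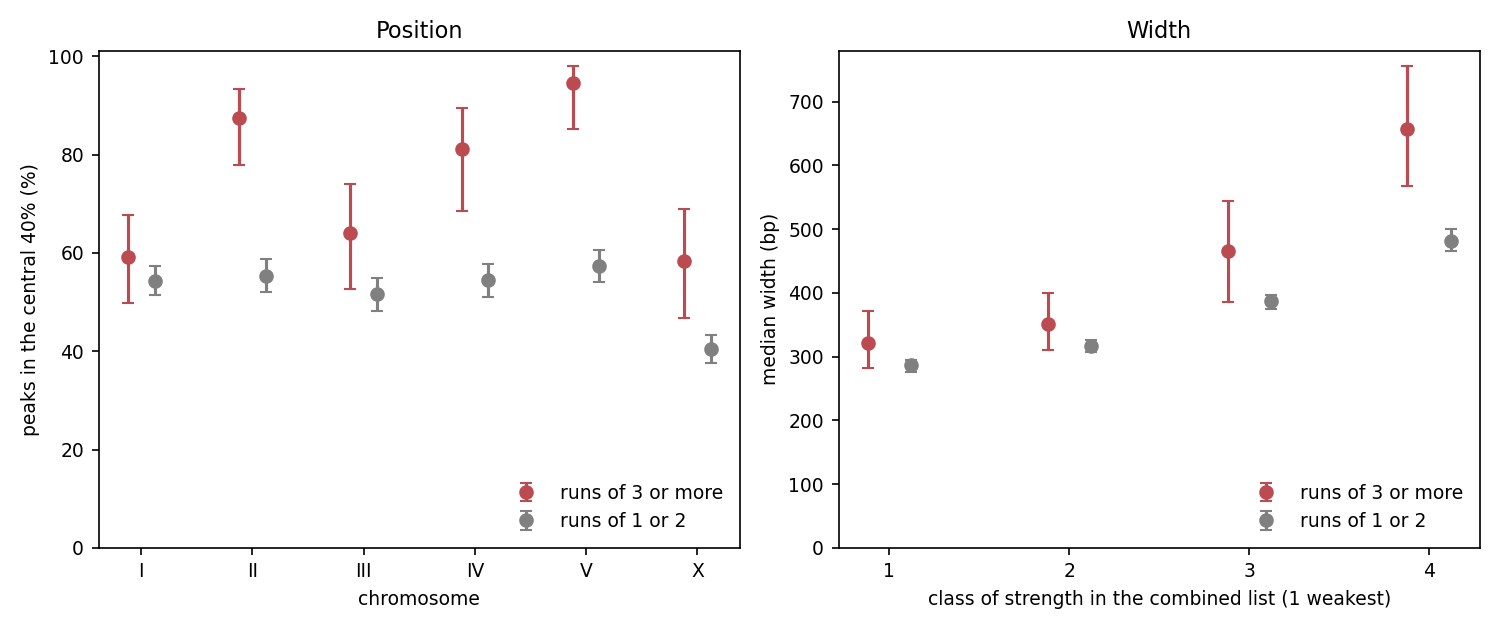
Left, share of peaks (%) in the central 40% of each chromosome with Wilson 95% intervals; right, median width (bp) with 95% intervals from order statistics, by class of strength in the combined list; red, runs of 3 or more, grey, runs of 1 or 2. Members lie higher in every pair of points, with 94.5% against 57.4% on V and 657 bp against 481 bp in the strongest class. The intervals overlap on I and III at left and in all but the strongest class at right. With midpoints joined the order of widths over all peaks turned.

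Very short peaks completed some runs. There were 11 members under 50 bp, the shortest of 4 bp, and 10 of them were in neither replicate list. Without all combined peaks under 50 bp, 7 runs were lost. Such peaks were as frequent among members (2.52%, 1.41 to 4.45%) as among others (2.34%, 1.98 to 2.77%), within the intervals. One of them closed the run of 5 on V at 9075837 to 9083104. Its 9 bp peak, with a strength of 3.98, lay 995 bp from the member before it, and a replicate 1 peak of 45 bp lay over it. The other 4 members of that run measured 767 to 1519 bp.

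That gap of 995 bp was also the widest one the rule let in. Next inside were II at 5962300 to 5967061 with 990 bp and V at 10273545 to 10276966 with 989 bp, whose strongest members had 13.1 and 24.9. Just outside were II at 12006663 to 12009588 with a gap of 1004 bp, X at 6131251 to 6134894 with 1009 bp and III at 5686398 to 5688626 with 1012 bp, whose strongest peaks had 5.32, 7.30 and 3.87. The set on X would have been a run by 9 bp more, and replicate 1 had a run of 3 peaks of its own there, at 6131251 to 6132886.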

How the data were processed

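Per the file headers, the authors called peaks with PeakSeq on genome build WormBase WS190. The deposited value of each peak is a q-value, all below 0.01. Not given in the sources used here are the aligner, the PeakSeq version, how replicates were merged and which input went with which list. Labels do not say whether replicates came from separate cultures. From the deposited q-values, strength was computed as −log10. Runs, overlaps (at least 1 bp), gaps and positions were computed with pandas 2.3.3, numpy 2.4.6 and scipy 1.17.1 in Python 3.11.15, and plots with matplotlib 3.10.9. The search for runs was run on simulated data built by the same rule, and the number of runs found equalled the number planted. That checks the code alone. Intervals of shares are Wilson 95% intervals of counting error alone. Every measure depends on the positions that chose the members, or on lists that may share their reads, so no test was run and no count of called features applies. The members, the named runs and the settings were chosen with earlier results of these data known. Runs were named by number of peaks (first 10), by strongest peak (first 10), first of each chromosome, nearest to the 1000 bp limit, and strongest in 1 or in neither replicate list, with the 3 weakest as a contrast. Gene names on hand were placed on WBcel235, a different build, so no gene was assigned and no sequence was printed.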

Additional observations from a re-analysis of the deposited data

How the results depend on the processing

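Settings other than the reported one were compared by value, with no test. The number of runs (131) was 30 with gaps of at most 500 bp, 319 with 2000 bp, 21 in the stronger 50% of the list and 32 for runs of 4 or more. In the replicate lists alone it ranged from 8 to 37. The share of peaks in runs (7.10%) was 1.56%, 18.7%, 2.14% and 2.27% under the same 4 settings, 5.07% with midpoints joined, and 1.78 to 3.00% in the replicate lists. Median width was 533 bp for members and 370 bp for others with 500 bp gaps, and 651.5 and 438 bp in the stronger 50%. In the replicate lists it was 673 and 370 bp (replicate 1) and 483 and 367 bp (replicate 2). In the combined list with midpoints joined the order turned, to 355.5 bp for members and 372 bp for others. Median strength was 4.52 for members and 3.96 for others with 2000 bp gaps, and 7.71 and 6.71 in the stronger 50%. In the replicate lists it was 3.21 and 2.94 (replicate 1) and 4.28 and 3.75 (replicate 2). In the combined list the order turned, to 3.93 for members and 4.06 for others with 500 bp gaps, and to 3.84 and 4.08 with midpoints joined.

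The central share stayed above that of other peaks under every setting run: 80.2% with 500 bp gaps, 66.6% with 2000 bp, 78.8% in the stronger 50%, 86.4% for runs of 4 or more, 75.8% without chromosome I, 79.2% in a central 50%, 62.7% in a narrower central window, and 73.3 to 100% in the replicate lists. For overlap the differences between members and others changed sign with the setting. Overlap with replicate 1 was 30.3% for members and 24.6% for others with 2000 bp gaps, and 50.0% and 45.9% in the stronger 50% and turned to 22.9% for members and 23.8% for others with a reciprocal overlap of 50%, and to 19.2% and 26.0% with midpoints joined. Overlap with replicate 2 was 80.3% (69.2 to 88.1%) for members and 89.5% for others in the stronger 50%, 54.5% and 58.4% with reciprocal overlap, and turned to 63.5% for members and 60.6% for others with 2000 bp gaps. Overlap with both was 25.2% and 18.8% with 2000 bp gaps and turned to 19.8% and 20.0% with 500 bp gaps, 37.9% and 39.8% in the stronger 50%, 16.7% and 17.7% with reciprocal overlap, and 15.7% and 20.2% with midpoints joined. Overlap with neither was 7.58% and 4.48% in the stronger 50% and turned to 31.3% and 33.7% with 2000 bp gaps. Runs with members in both lists were 66.5% with 2000 bp gaps, 71.4% in the stronger 50%, 75.0% for runs of 4 or more and 44.8% with midpoints joined. The share with both strongest peaks at the same place was 60.0% in the stronger 50%, 62.5% for runs of 4 or more and 60.6% with reciprocal overlap. The cause of these shifts was not tested. The settings with midpoints joined, without peaks under 50 bp, without the run with the strongest peak and with central peaks alone were chosen after the data were seen. No paired analysis was possible because the lists hold no value per library. Without read counts, an absent call is not absent binding.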

Other observations

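Some rows of close peaks appeared in a replicate list without a combined run. Replicate 1 had 2 of these. On V at 8434356 to 8436483 its 3 peaks stood beside 1 combined peak, and on X at 6131251 to 6132886 beside 2. Replicate 2 had 7, at 8045244 and 8409693 on I, 2195611 on II, 5987024 on III, 6658710 and 12036697 on V and 3464676 on X, each with 2 combined peaks and 3 of replicate 2. The strongest peak among them had a strength of 9.89 and lay in the row on V that starts at 6658710.

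The 1 Mb window with the most runs was III from 8000001 to 9000000, with 5 runs of 17 peaks among 108 combined peaks. The next, I from 9000001 to 10000000, also had 5 runs, with 16 peaks among 145. On II from 5000001 to 6000000 there were 4 runs of 18 peaks among 96. On V from 13000001 to 14000000 there were 4 runs of 14 peaks among 60 combined peaks. These windows were picked by rank and no test was made.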
